A study of Homo sapiens with 6 samples.

Results

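RET is a receptor tyrosine kinase that does not bind its ligands alone. The ligands GDNF, NRTN (neurturin) and ARTN (artemin) first bind a co-receptor anchored to the cell surface, of which GFRA1, GFRA2 and GFRA3 are the preferred partners of GDNF, NRTN and ARTN in that order, and the pair then brings RET together and activates it. The pathway is known from the developing kidney and nervous system, and in estrogen receptor-positive breast cancer cells RET and GFRA1 are known as estrogen-responsive genes. The compartments that hold these 7 genes were read in T47D, a breast cancer line that carries the estrogen receptor. The 7 genes were taken as a list of 1 receptor, 3 co-receptors and 3 ligands out of 19710 protein-coding genes with a score, and each was described by the 100 Kb bins that overlap its gene body and by 10 bins on either side. The list was chosen by the scores of GFRA1, which lies in a long block that moved from compartment A to compartment B in tamoxifen-resistant cells, so its change is given as a description, and the values of the other members in the same contrast are treated in the same way.

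The data are 1 TCC library for each of 6 conditions. TCC is a form of Hi-C with ligation on a solid surface. Parental T47D cells were starved of hormone for 72 h and collected without E2 (T0) or after 1, 4, 16 and 24 h in 100 nM E2 (β-estradiol; T1, T4, T16 and T24), and the sixth library comes from tamoxifen-resistant T47D cells (TamR), a derived line that the labels call untreated, while the methods describe TamR cells as grown in tamoxifen and charcoal-stripped serum. Resistance, tamoxifen in the medium, the culture conditions and the line itself cannot be told apart in TamR.

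The deposited value is a score per bin, the first eigenvector of the contacts between chromosomes. Bins above 0 form compartment A, which holds active chromatin, and bins below 0 form compartment B, which holds inactive chromatin. Scores are given here multiplied by 1000. In each library they have an SD of 5.98 over the 27898 bins with a score in all 6 libraries, and the score of a gene is the mean over the bins of its body. The scores measure neither expression nor single promoters, and breast or luminal markers could not be checked by RNA. With 1 library per condition no difference has a replicate check and no p-value is given. The spread over the 5 parental libraries is the only yardstick, and it holds the effect of E2 as well as technical noise. The correlation with T0 over bins was 0.985 to 0.994 in the E2 libraries and 0.894 in TamR, so TamR stands apart from the others as a whole. All 13 gene-body bins and all 153 bins of the 7 windows had a score in every library.

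In T0, 6 of the 7 genes lay in A (85.7%, against 77.4% of all protein-coding genes), and GDNF lay in B. In TamR 4 of the 7 were in A. In 500 Kb bins the counts were 7 of 7 in T0 and 6 of 7 in TamR, since GDNF in T0 and both GDNF and GFRA2 in TamR were then positive. The 2 genes that moved were co-receptors, GFRA1 and GFRA2, both from A to B, whereas 4.45% of all protein-coding genes moved in this direction (5.75% of those in A in T0). Both were in A in all 5 parental libraries, and 2.74% of all protein-coding genes had that pattern. GFRA1 was chosen for this change, so its call and its pattern were fixed in advance. Apart from GFRA1 the only member that moved was GFRA2, and in 500 Kb bins GFRA2 did not. Over the 7 genes 0 moved from B to A, a move made by 5.15% of all protein-coding genes, and only GDNF could have made it. The receptor RET and the co-receptor GFRA3 remained in A with lower TamR scores than in any parental library, as 46.7% of all protein-coding genes had. The ligands ARTN and NRTN remained in A with TamR scores inside the parental range. GDNF was the only member with a TamR score above all 5 parental libraries, as 30.4% of all protein-coding genes were. The median TamR minus T0 difference was -0.48 over the 7 genes and -0.38 over all protein-coding genes, so the set as a whole had a median near that of the genome and 2 members carried the large differences.

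**Figure D1:**
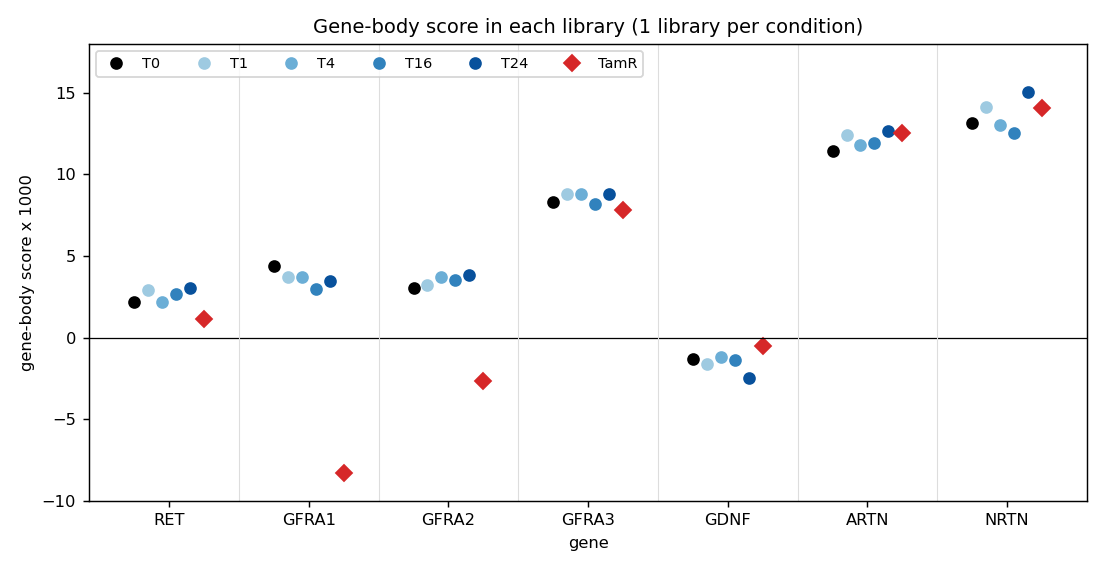
Gene-body score multiplied by 1000 (vertical axis) for each gene (horizontal axis), 1 point per library, with parental libraries as circles and TamR as red diamonds. GFRA1 falls from 4.39 in T0 to -8.27 in TamR and GFRA2 from 3.05 to -2.65, while the other 5 genes keep the sign they had in T0.

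GFRA1, the co-receptor of GDNF, spans chr10:117816436-118036315 of hg19 on the minus strand (ENSG00000151892.16_13) and overlaps 3 bins. Its score was 4.39 in T0, 3.74 in T1, 3.70 in T4, 3.00 in T16 and 3.50 in T24. In TamR it was -8.27. All 5 parental libraries lay within 1.39 of each other on the side of A, and TamR lay 11.26 below the lowest of them. The TamR minus T0 difference of -12.65 was the 2nd largest fall among 19710 protein-coding genes, and the largest, -12.74, belonged to the adjacent gene ATRNL1 in the same block. Placed within its own library, the GFRA1 score stood at percentile 75.3 of all bins in T0 and at percentile 5.27 in TamR.

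The fall was shared by the whole neighbourhood. Of the 23 bins of the GFRA1 window, 23 were in A in each parental library and 0 in TamR. The largest difference between TamR and T0 in the window was -14.12 and the smallest -5.10. The run of bins positive in all 5 parental libraries and negative in TamR reached from 116500001 to 119100000 on chromosome 10 (26 bins, 2.6 Mb). There were 375 such runs in the genome with a median of 2 bins, and 2 were longer. The run is a trough rather than a step. TamR scores lay between -7.22 and -9.45 from 116900001 to 118100000, which takes in all of GFRA1, with the lowest value at 117200001 to 117300000 inside ATRNL1, and rose from there to -0.56 at 118900001 to 119000000. The bins just outside the run were positive in TamR, at 0.36 before it and 1.62 after it, and measured 6.27 and 6.13 in T0. In the parental libraries the bin of the GFRA1 start had at least 36 bins on either side within an A compartment of 7.3 to 7.5 Mb. In TamR that compartment was broken by 3 stretches of negative score. The longest was the B compartment of 2.6 Mb that holds GFRA1, with 10 bins between the bin of the GFRA1 start and its end. The other 2 were short and near 0, with 2 bins from 116100001 to 116300000 (-1.44 and -0.28) and 4 bins from 119600001 to 120000000 (-0.84 to -0.05).

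**Figure D2:**
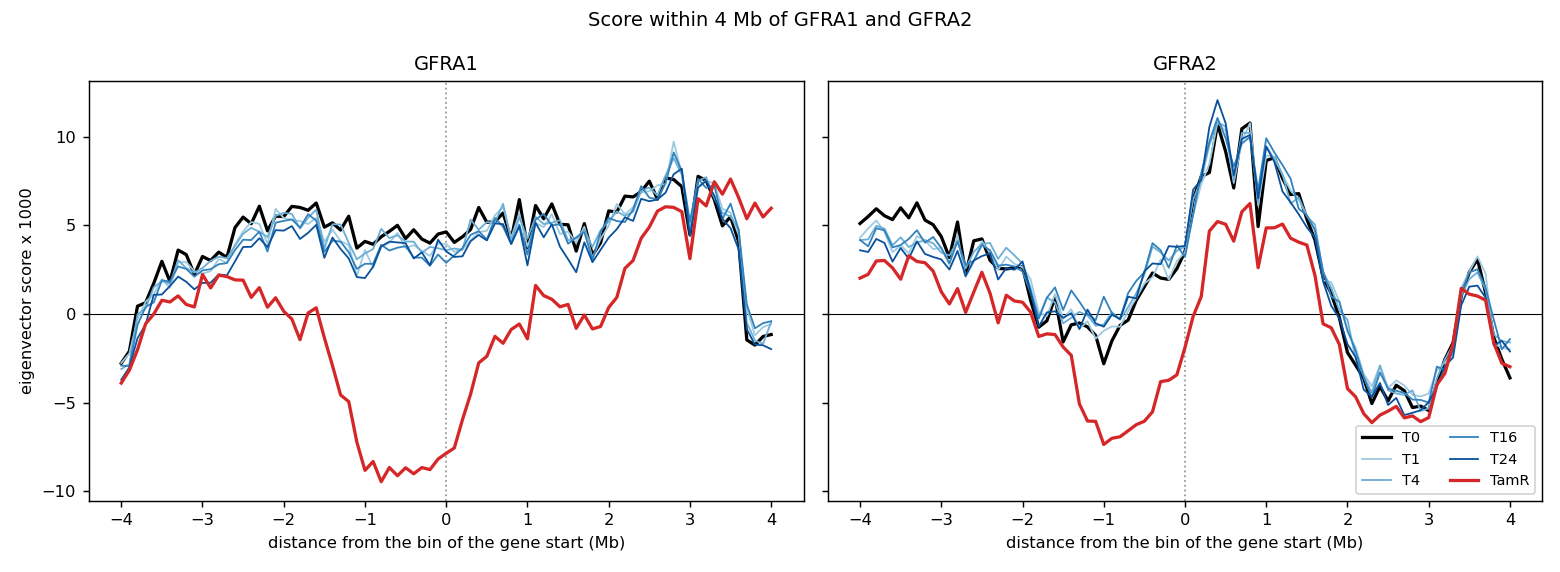
Score multiplied by 1000 (vertical axis) against the distance in Mb from the bin of the gene start (horizontal axis, dotted line at 0, in the direction of rising coordinates), 1 line per library, for GFRA1 on the left and GFRA2 on the right. For GFRA1 the TamR line (red) drops to -9.45 within a region that is positive in all parental libraries, and for GFRA2 it crosses 0 on the other side of the gene from the parental lines.

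Every other protein-coding gene that starts in the GFRA1 window moved as well, 13 of 13 from A to B, where 5.75% of all protein-coding genes in A in T0 did. The window lies inside the block for which GFRA1 was chosen, so this count follows from that choice. The first 5 in genome order are ATRNL1, CCDC172, PNLIPRP3, PNLIP (pancreatic lipase) and PNLIPRP1, a relative of it. Their TamR minus T0 differences were -12.74, -12.04, -10.96, -9.29 and -9.29, and the last 2 share a bin. These genes share bins or adjoin, so their values are not separate observations.

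GFRA1 stayed within A over the E2 course. The score was lower than in T0 at all 4 E2 time points, with differences from T0 of -0.64 (T1), -0.68 (T4), -1.39 (T16) and -0.89 (T24). T0 was the highest of the 5 parental libraries in 16 of 23 window bins, against 26.7% of all bins, and T24 was the lowest in 12 of 23, against 31.8% of all bins. Neighbouring bins are not independent, and with 1 library per condition the part of E2 in these differences was not tested.

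The GFRA1 promoter is shown with that of RET, the other member on chromosome 10, because one start fell into B and the other remained in A near the border. Each is the stretch before the most upstream of the RefSeq starts (4 for GFRA1, 2 for RET), taken from RefSeq (GRCh38.p14) and matched exactly to GRCh37. The GFRA1 stretch lies at chr10:118034228-118034467 on the minus strand and the RET stretch at chr10:43572267-43572506 on the plus strand. Both are written 5′ to 3′ on the strand of the gene and cover the first 240 of the 250 bases before the start, and capitals mark a match to a searched motif.
GFRA1: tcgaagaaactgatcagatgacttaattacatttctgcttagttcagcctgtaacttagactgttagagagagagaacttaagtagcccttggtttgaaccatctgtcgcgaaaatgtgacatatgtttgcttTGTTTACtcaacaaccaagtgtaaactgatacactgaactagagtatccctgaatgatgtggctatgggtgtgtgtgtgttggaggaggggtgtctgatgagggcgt
RET: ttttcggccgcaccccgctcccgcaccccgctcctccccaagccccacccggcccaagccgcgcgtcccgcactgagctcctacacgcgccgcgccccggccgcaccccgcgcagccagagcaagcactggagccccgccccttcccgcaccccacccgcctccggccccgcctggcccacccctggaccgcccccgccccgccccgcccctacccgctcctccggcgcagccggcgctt
The GFRA1 stretch holds 4 CG pairs at 42.1% GC, and the RET stretch holds 32 at 80.4%. The stretches before the other 3 GFRA1 starts had 65.0%, 65.8% and 42.5% GC, so the one shown does not stand for all of them. By the GENCODE annotation the GFRA1 stretch lies inside the GFRA1 gene body and overlaps 1 annotated exon, and the RET stretch overlaps 0 exons. Searched on both strands of the 250 bases were the core of the estrogen receptor element with the letters GGTCA, a forkhead motif with the letters GTAAACA, a motif of GATA factors with the letters AGATAA, and the site of HindIII, the enzyme of the TCC libraries, with the letters AAGCTT. The forkhead letters occur once before this GFRA1 start, on the reverse strand at position -117, and 2.98% of 35116 RefSeq promoters of this length hold them. None of the other letters occurs in either stretch, and of all promoters 32.6% hold the receptor letters, 9.17% the GATA letters and 5.02% the HindIII site. These matches describe letters only, and the scores are 100 Kb wide.

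GFRA2, the preferred co-receptor of NRTN, spans chr8:21547910-21669869 (ENSG00000168546.11_8, minus strand) and overlaps 2 bins. Its score was 3.05 in T0, 3.24 in T1, 3.69 in T4, 3.55 in T16, 3.82 in T24 and -2.65 in TamR. The TamR value lay 5.70 below the lowest parental library, and the parental libraries spanned 0.77. The TamR minus T0 difference, -5.70, ranked 111th from the largest fall among the 19710 genes (percentile 0.56). Its percentile within the library was 69.3 in T0 and 38.4 in TamR, a smaller drop than that of GFRA1 and one that ended nearer the border.

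The GFRA2 window has a different shape from that of GFRA1. In the parental libraries the gene sat on a slope. Over the first 5 window bins, on the side of lower coordinates, scores ran from -2.80 to -0.34 in T0 and lay on both sides of 0 in the E2 libraries, up to 1.19 in T16. On the other side an A compartment reached 10.78 in T0. TamR was below all 5 parental libraries in 22 of 22 window bins, against 43.6% of all bins, with differences from T0 between -7.83 and -2.32. The border between B and A moved over the gene. In T0 the A compartment that held the GFRA2 start began at 21000001, whereas in TamR the start lay in a B compartment from 19800001 to 21800000, and 1 further B bin separated it from A. The block positive in all 5 parental libraries and negative in TamR ran from 21000001 to 21800000 (8 bins), and 25 of the 375 such runs were at least as long. The 25 other protein-coding genes starting in the window were all in A in T0. Of these 1 moved to B, where 5.75% of all protein-coding genes in A in T0 did. It was DOK2, an adaptor of receptor tyrosine kinases, with a score of 6.46 in T0 and -0.13 in TamR. The next 4, XPO7, NPM2, FGF17 and DMTN, remained in A with TamR minus T0 differences of -6.68, -6.77, -5.04 and -3.30. Since the border passes through this window, the call for GFRA2 depends on the bin size. In 500 Kb bins the score was 5.66 in T0 and 0.047 in TamR, so that the gene stayed on the side of A by a margin near 0. Over the E2 course GFRA2 rose by 0.19 to 0.77 and did not change compartment. T0 was the lowest parental library in 13 of 22 window bins, against 23.1% of all bins.

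GFRA3, the preferred co-receptor of ARTN, spans chr5:137588069-137610310 (ENSG00000146013.11_11) and overlaps 2 bins. Its score was 8.30 in T0, 8.82 in T1, 8.77 in T4, 8.22 in T16 and 8.78 in T24. In TamR it was 7.82, which is 0.39 below the lowest parental value. TamR fell below all 5 parental libraries at 46.7% of all protein-coding genes, so the position of GFRA3 is a common one, and its TamR minus T0 difference of -0.48 stood at percentile 47.8 of all genes. At the low-coordinate edge of its window 4 bins moved from B in T0 to A in TamR, and the same 4 bins differed from T0 at one or more E2 time points. Their scores in T0 were between -0.65 and -0.12. SPOCK1, a proteoglycan gene whose body covers these bins, had -0.16 in T0, 0.21 to 0.71 in the E2 libraries and 2.22 in TamR. In the parental libraries the compartment of GFRA3 was 5.4 to 6.7 Mb long, and in TamR it was 11.3 Mb long.

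RET itself spans chr10:43572512-43625799 (ENSG00000165731.21_15, plus strand) and overlaps 2 bins. Its score was 2.18 in T0, 2.92 in T1, 2.20 in T4, 2.71 in T16, 3.02 in T24 and 1.15 in TamR. RET was in A in all 6 libraries. TamR lay 1.03 below the lowest parental library, and 46.7% of all protein-coding genes had TamR below all 5. The TamR minus T0 difference of -1.03 stood at percentile 34.9 of all genes, inside the bulk of the distribution. The gene lies at the edge of its compartment. Scores in T0 ran from -8.74 at 42600001 to 42700000 up to 3.28 at 43800001 to 43900000. The A compartment that holds the RET start began at 43400001 in T0, at 43300001 in T1, T4 and T16 and at 43200001 in T24. In TamR it began at 43500001, with the bin of the RET start as its first bin. Thus 1 A bin lay before the start bin in T0, 3 in T24 and 0 in TamR. The TamR edge rests on 1 weak bin, 43400001 to 43500000, with 0.78 in T0, 3.15 in T24 and -0.13 in TamR, since the 2 bins before it had 0.096 and 0.13 in TamR. T24 was the highest parental library in 15 of 22 window bins, against 29.4% of all bins. T0 was the lowest in 14 of 22, against 23.1% of all bins. Of 10 other genes starting in the window, the first 5 are ZNF33B, BMS1, CSGALNACT2, RASGEF1A and FXYD4. BMS1, a ribosome biogenesis gene, had -1.16 in T0, -0.11 in T1, -0.16 in T4, -0.26 in T16, 1.10 in T24 and 0.11 in TamR, so it lay in A in T24 as well as in TamR. The others had the same sign in T0 and TamR.

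**Figure D3:**
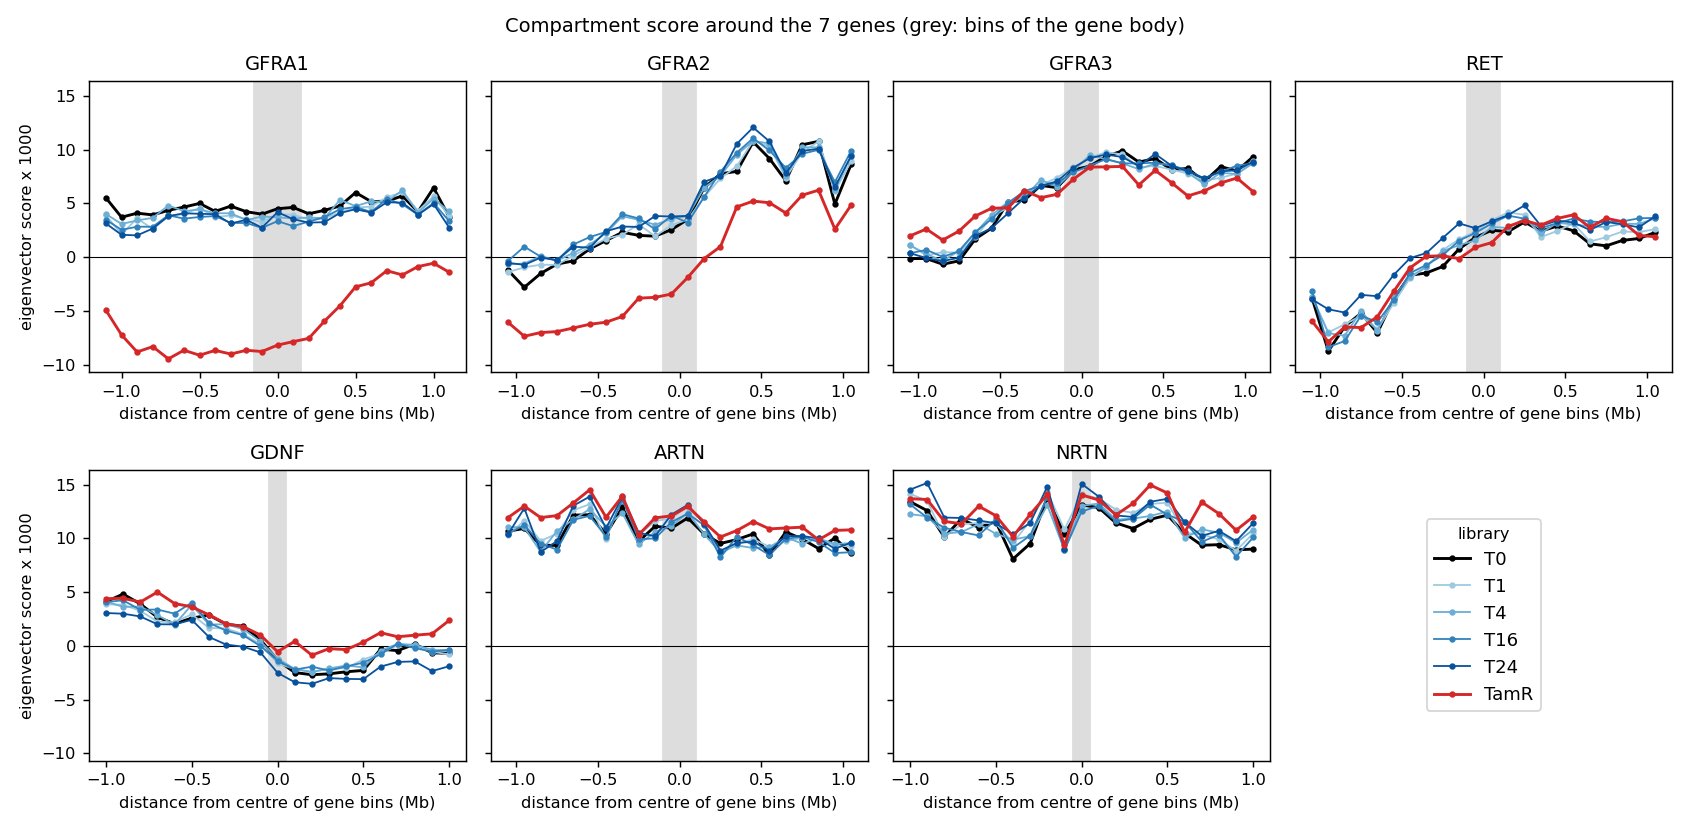
Score multiplied by 1000 (vertical axes, shared) against the distance in Mb from the centre of the bins of the gene body (horizontal axes, rising coordinates), 1 panel per gene and 1 line per library, with the gene body in grey. The TamR line (red) separates from the parental lines over the whole GFRA1 and GFRA2 windows, crosses them in the GFRA3 and RET windows (above all 5 in 7 and 4 of 22 bins, below all 5 in 14 and 6), lies above them over most of the GDNF window, and stays at 9.36 or higher at ARTN and NRTN.

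Among the ligands, GDNF was the single member in B. It spans chr5:37812779-37840143 (ENSG00000168621.15_12) and lies in 1 bin, with scores of -1.33 in T0, -1.63 in T1, -1.17 in T4, -1.38 in T16, -2.50 in T24 and -0.54 in TamR. TamR was 0.63 above the highest parental library and T24 was the lowest. In 100 Kb bins GDNF remained in B in every library, at percentile 46.6 of bins in T0 and 49.4 in TamR, so it lay near the border throughout. This call depends on the bin size. In 500 Kb bins GDNF had 0.13 in T0, -0.18 in T1, 0.13 in T4, -0.23 in T16, -1.28 in T24 and 0.95 in TamR, which puts it in A in T0, T4 and TamR. The bin is the first B bin beside an A compartment in T0, T1 and T4. In T24 the B compartment that holds it was 5.3 Mb long, against 0.7 to 0.8 Mb in the other parental libraries. In TamR it was that single bin. These lengths rest on weak bins. The bin that ends the run had 0.18 in T0 (38600001 to 38700000). It had 0.082 in T1, 0.18 in T4 and 0.21 in T16 (38500001 to 38600000). In TamR the bin after that of GDNF had 0.43, and the next one, 38000001 to 38100000, was in B again at -0.86. T24 was the lowest parental library in 20 of 21 window bins, against 31.8% of all bins. T24 also had the lowest share of bins in A of the 6 libraries (the others had 46.0 to 47.5%), and the part of that in the GDNF values was not tested. In TamR 6 window bins moved from B to A, 5 of them in B in all 5 parental libraries. TamR was above all 5 parental libraries in 18 of 21 bins, against 35.0% of all bins. Of 7 other genes starting in the window 4 were in A in T0, and the other 3 moved from B to A. This move was made by 5.15% of all protein-coding genes, but 77.4% of them lay in A in T0 and could not make it. In counts, 15264 of 19710 genes lay in A in T0, and all 1015 genes that moved from B to A came from the rest. The share among genes in B in T0 is therefore much higher than 5.15%. The 3 genes are EGFLAM, LIFR (the receptor of leukemia inhibitory factor) and OSMR (the receptor of oncostatin M), the last 2 named after their values were seen. LIFR had -0.19 in T0, -1.62 in T24 and 1.03 in TamR, and OSMR -0.62, -2.26 and 0.98. NIPBL, CPLANE1, NUP155 and WDR70, the first 4 genes of the window, were in A in all 6 libraries.

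ARTN and NRTN lay among the strongest A bins. ARTN (chr1:44398992-44402912, ENSG00000117407.17_16) had scores of 11.43 in T0, 12.42 in T1, 11.78 in T4, 11.92 in T16, 12.67 in T24 and 12.54 in TamR. NRTN (chr19:5805078-5828335, ENSG00000171119.3_5) had 13.13, 14.12, 13.04, 12.52, 15.08 and 14.05 in the same order. The TamR value of both lay between the lowest and the highest parental library. Their percentiles were 95.6 and 98.1 in T0 and 97.8 and 99.3 in TamR. All 22 bins of the ARTN window and all 21 of the NRTN window were in A in all 6 libraries, with no score under 8.09. TamR was above all 5 parental libraries in 18 of 22 ARTN bins and in 10 of 21 NRTN bins, against 35.0% of all bins. Of 41 and 50 other genes starting in these windows, 0 moved. The NRTN window holds PSPN (persephin), the fourth ligand of the family, which had 12.17 in T0 and 14.22 in TamR. The ends of these compartments differed between libraries. A compartment is cut by any bin of the other sign or without a score, so a single bin can change its length greatly. The compartment of ARTN was 13.1 to 13.3 Mb long in the parental libraries and 27.2 Mb in TamR, and that of NRTN was 8.5 to 9.1 Mb in T0, T1, T4 and T16 and 20.1 and 20.3 Mb in T24 and TamR.

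In order of level, the T0 scores ran from NRTN through ARTN, GFRA3, GFRA1, GFRA2 and RET to GDNF. Between neighbours in this order, NRTN was above ARTN, ARTN above GFRA3, GFRA3 above GFRA1, GFRA2 above RET and RET above GDNF in 5 of 5 parental libraries, although the ranges of NRTN (12.52 to 15.08) and ARTN (11.43 to 12.67) overlap across libraries. GFRA1 (3.00 to 4.39) was above GFRA2 (3.05 to 3.82) in 3 of 5, so the order of this pair is not separated by the parental spread. In TamR the order was NRTN, ARTN, GFRA3, RET, GDNF, GFRA2 and GFRA1.

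**Figure D4:**
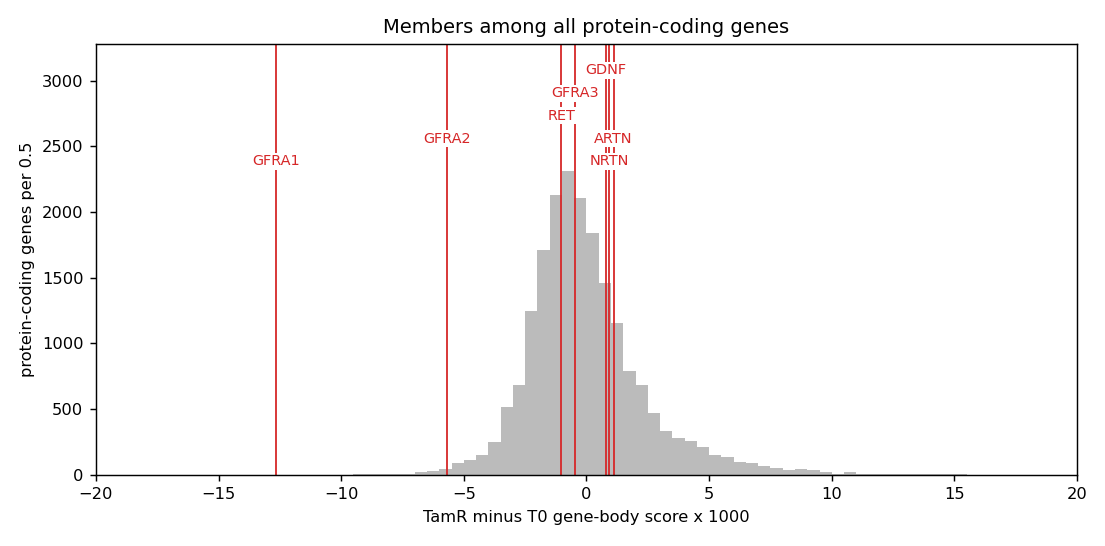
Number of protein-coding genes per step of 0.5 (vertical axis) against the TamR minus T0 difference of the gene-body score multiplied by 1000 (horizontal axis), with the 7 genes as red lines. GFRA1 at -12.65 and GFRA2 at -5.70 lie in the left tail, and the other 5 lie between -1.03 and 1.11.

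No member changed compartment at any E2 time point in 100 Kb bins (0 of 7), while 5.31% of all protein-coding genes did at one or more. In 500 Kb bins 1 member, GDNF, did. Of the 153 window bins 13 did so (8.5%, against 7.11% of all bins), 3 at GFRA2, 4 at GFRA3, 2 at RET and 4 at GDNF. Between T0 and TamR 32 window bins moved from A to B (20.9%, against 6.27% of all bins), 23 of them in the GFRA1 window, 8 in that of GFRA2 and 1 in that of RET. GFRA1 was chosen for this change, and without its window the count was 9 of 130 bins (6.92%), close to that of all bins. The same 32 bins were in A in all 5 parental libraries, a pattern of 3.94% of all bins, and here too 23 of them come from the chosen GFRA1 window. Of the 9 outside it, 8 form a single run of adjacent bins at GFRA2. From B to A 12 window bins moved (7.84%, against 7.67% of all bins), 4 at GFRA3, 2 at RET and 6 at GDNF.

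The properties of the sequence in these bins were also read. The GFRA1 block had a GC content of 39.8%, equal to the median of all scored bins (39.8%), and 31.3 HindIII sites per bin on average (17 to 40), against a median of 29 over all bins. The GFRA2 block had 45.8% GC and 25.1 sites per bin. The bins of ARTN and NRTN, which ranked highest in score, had 51.2% and 55.1% GC and 18 and 14 sites. The GDNF bin had 44.2% GC and 24 sites. GC content and number of sites are the same in all libraries, and their part in differences between libraries was not tested.

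Other genes of the pathway were counted from a list of 38. Of these 33 lay in A in T0 (86.8%) and 29 in TamR (76.3%). Of the 33 in A in T0, 4 moved to B, where 5.75% of all protein-coding genes in A in T0 did. From B to A 0 moved, against 5.15% of all protein-coding genes. Of the 4 that moved, 3 were among the 10 transcription factors of the list and 1 among the 22 adaptors and effectors. The list was chosen with earlier results of these data known, so its counts are a description. The median TamR minus T0 difference was -0.79, against -0.38 over all genes. The 6 other family genes are PSPN, the ligand GDF15, the co-receptors GFRA4 and GFRAL, and NCAM1 and SDC3, which bind GDNF without RET, and 0 of the 6 moved. GFRAL, the receptor of GDF15, had scores close to the border in all parental libraries (-0.44 in T0, -0.04 in T1, 0.16 in T4, -0.08 in T16 and 0.31 in T24) and -6.66 in TamR. Its difference from T0, -6.22, ranked 76th from the largest fall, ahead of GFRA2. GFRA4 had 10.41 in T0 and 8.33 in TamR, and GDF15 had 10.06 and 8.31.

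Of 22 adaptors and effectors of RET signalling, 19 of them in A in T0, 1 moved from A to B (4.45% of all protein-coding genes did), PIK3R1, the regulatory subunit of PI3-kinase, with 3.95 in T0 and -3.66 in TamR. Of 10 transcription factors, all in A in T0, 3 moved from A to B, against 5.75% of all protein-coding genes in A in T0. ESR1, the estrogen receptor, had 2.89 in T0, 1.23 to 2.24 in the E2 libraries and -0.51 in TamR. GATA3, a luminal factor, had 2.20, 0.79 to 1.55 and -0.76. NKX2-1, a lung and thyroid factor, had 3.09, 1.98 to 3.11 and -1.97. The values of ESR1 and GATA3 in TamR lie close to the border, at percentiles 49.6 and 48.2 of all bins. FOXA1, the forkhead factor that opens chromatin for the estrogen receptor, is named after its value was seen and stayed in A next to the border, with 2.40 in T0 and 0.23 in TamR.

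**Figure D5:**
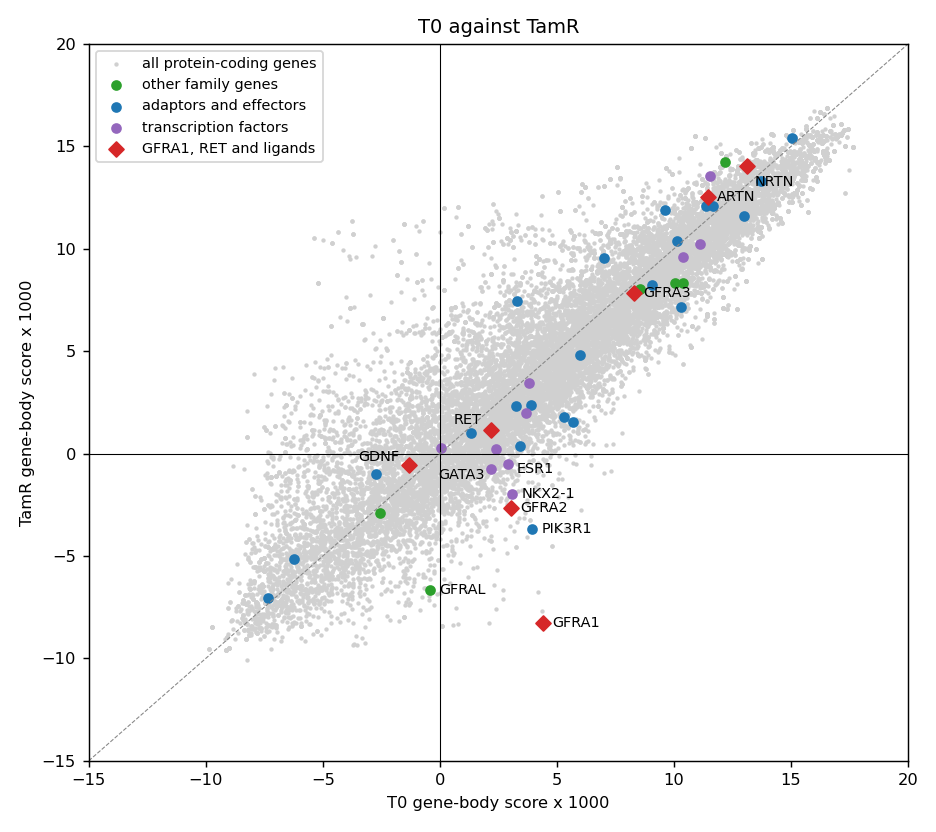
TamR score against T0 score, both multiplied by 1000, with all protein-coding genes in grey, the 38 pathway genes in 3 colours by group and the 7 genes as red diamonds, and a dashed line of equal scores. The lower right part holds the genes that moved from A to B, with GFRA1 lowest among the marked genes, followed by PIK3R1, GFRA2, NKX2-1, GATA3 and ESR1.

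The genes most like GFRA1 over the 6 libraries, among 18985 protein-coding genes on other chromosomes and by Euclidean distance between the 6 scores, were IGSF10 (distance 3.41), NYAP2 (3.56), AADAC (3.67), AADACL2 (3.89) and GPR171 (4.11). NYAP2 lies on chromosome 2, and the other 4 lie on chromosome 3 between 150915619 and 151546276, so that they are near neighbours. All 5 had positive scores in the 5 parental libraries and TamR scores between -8.28 and -4.58. For RET the 5 nearest genes were TMPO (0.65), SDK1 (0.69), SLC9B1 (0.71), ABCA12 (0.78) and ADGRD1 (0.86), on 4 chromosomes.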

How the data were processed

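TCC libraries of 6 conditions, 1 each, were compared. According to the methods, the authors aligned reads iteratively to hg19 with bowtie2, removed low-coverage bins, truncated the highest interchromosomal counts, corrected the matrix iteratively, removed contacts within chromosomes and computed the eigenvector with HiCLib. The deposited score has squares that sum to about 1 within a library, so sizes are relative to the other bins of that library. A score of 0 marks a bin without a value, and such bins were left out. Whether replicates were pooled is not given in the sources used here, and the depth behind a score is unknown.

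The score of a gene is the mean over the bins overlapping its body in GENCODE v44 lifted to GRCh37, whose 23 chromosome lengths equal the ends of the bins. The compartment is the sign of the score. No test between conditions was made. Python 3.11.15, numpy 2.4.6, pandas 2.3.3 and matplotlib were used, and the finding of blocks was checked on simulated tracks. The members, the pathway list and the rules for neighbours (up to 5 named per member, in genome order) and for like genes (the 5 nearest on other chromosomes) were chosen with earlier results of these data known.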

Additional observations from a re-analysis of the deposited data

How the results depend on the processing

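No paired analysis was possible because a single library stands for every condition. The depth of the libraries is unknown from the scores, so what it limits was not assessed. Orienting chromosomes by GC content turned 0 tracks, and dividing by the library SD changed no call. The block at GFRA1 stayed within 1.5 times its 26 bins under every alternative run, and the count of pathway genes under both of its own. A difference is given below where it left the SD over the 5 parental libraries, and a share where it left its 95% Wilson interval. The cause of these changes was not tested.

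In 500 Kb bins 1 member moved from A to B, since GFRA2 no longer did. On that scale 1 member, GDNF, changed sign at an E2 time point, an alternative chosen after seeing the data. The differences were then -11.75 for GFRA1, -1.10 for GFRA3 and -0.18 for RET, and the shares of genes moved were 3.94% from A to B and 5.54% from B to A. With the mean of the parental libraries as reference the differences were -11.93 for GFRA1, -6.12 for GFRA2, -1.46 for RET and 0.49 for ARTN, and the A to B share was 4.00%. With T24 as reference they were -11.76 for GFRA1, -6.47 for GFRA2, -0.95 for GFRA3, -1.87 for RET and 1.96 for GDNF, and turned negative for ARTN (-0.14) and NRTN (-1.03), with shares of 3.16% and 5.53%. The bin of the gene start gave -0.088 for GFRA3. A border at the library median gave shares of 4.94% and 4.64%, which turns the balance of the directions. Removal of the weakest bins (absolute score below the 10th percentile of a library) gave 1.16% and 2.65%, by construction with fewer bins near the border, and removed GDNF.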
